A study of Homo sapiens with 12 samples.

Results

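The response to a lentivirus carrying KLF4 was read in 2 lines of THP-1, a cell line grown from human monocytic leukaemia, that carried a CRISPR construct against miR-150. The lines are named 150-3 and 150-4 after their guides, and each was infected with the KLF4 virus or with an empty control virus (ECV). These 4 arrays, of 12 in the series, were chosen by their labels alone and not by any measured value. The other 8 arrays hold the same pair of viruses in lines NT-2 and NT-3, which carried a non-targeting construct, and in lines p21-2 and p21-3, which carried one against p21, the product of CDKN1A. All 12 samples thus carried a CRISPR construct and a lentivirus, and all were collected 5 days past infection and 17 days past selection. The labels leave unsaid whether a line is 1 clone or a pool and how completely its target was edited.

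KLF4 is a zinc finger transcription factor that binds CACCC boxes in DNA. In blood it is known for promoting the maturation of monocytes, and in other tissues for slowing the cell cycle, partly by raising CDKN1A. The microRNA miR-150 is known for repressing MYB, a transcription factor that keeps immature blood cells dividing.

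Biotin-labelled RNA was hybridised to Illumina bead arrays, and expression is given as the log2 level that the authors deposited. A level was taken as above background when it exceeded 7.26 (log2), and 12072 genes with a probe above it on at least 2 of the 12 arrays were tested. A gene was called changed at an adjusted p under 0.05 (limma, Benjamini-Hochberg over all genes tested), and log2 changes are KLF4 virus minus ECV. Each virus had 2 arrays, 1 per line, so the precision of each value is limited by this small number. Since no source says that the lines grew as separate cultures, a p-value here reflects spread among lines that may be technical in part or whole. Of 9 monocytic markers with a probe, 8 were above background on all 4 arrays (LYZ, SPI1, ITGB2, CSF1R, CD4, CD68, MEIS1 and FCGR1A), and MPO was above it with ECV alone. Of the other marker lists, NKG7, PPBP and TPSAB1 were above background on all 4 arrays. CD3D, CD3E, CD8A, GNLY, MS4A1, PF4, CPA3, HDC, KRT8, EPCAM and CDH1 lay below it on each. Fewer cells of a type and less RNA per cell cannot be told apart in these bulk samples.

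The genes named by the labels were read first. KLF4 itself was dim, and in line 150-3 its brighter probe read 7.89 with ECV and 7.60 with KLF4 virus, and in line 150-4 it read 7.97 and 7.56. Both KLF4 virus arrays were thus below both ECV arrays. The change was -0.35 (SE 0.103, limma adjusted p = 0.0303), and the call ended without any single array of the 4 (adjusted p from 0.0919 to 0.174). The other KLF4 probe changed by -0.25 and was not called. Where these probes lie relative to the KLF4 sequence in the virus is unknown here, and the label of the virus is therefore unchecked by them. MIR150 had no probe among the genes tested, so the edit was not checked either. An exact two-sided permutation test over the 4 arrays gave p = 0.333 for KLF4, CDKN1A and MYB alike, the smallest p that its 6 splits allow.

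The largest rises with KLF4 virus included 2 calcium-binding S100 proteins and several surface proteins of leukocytes. S100A8 led them, whose protein pairs with S100A9 and is abundant in monocytes and neutrophils. S100A8 read 8.79 with ECV and 13.73 with KLF4 virus in line 150-3, and 9.25 and 14.22 in line 150-4. Both KLF4 arrays stood far above both ECV arrays, and the rise was 31.1-fold (log2 change 4.96, SE 0.252, limma adjusted p = 2.18e-08, n = 2 lines). S100A9 went from 11.12 to 14.13 and from 11.32 to 14.60, a rise of 3.14 (SE 0.154). CD52, a small glycoprotein of leukocyte surfaces, was at 9.12 in both lines with ECV and at 13.69 and 13.60 with KLF4 virus. Its pairs of arrays were nearly equal within each virus, and it rose 23.0-fold (log2 change 4.52, SE 0.103, adjusted p = 3.33e-12).

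CD163, the scavenger receptor for haemoglobin on monocytes and macrophages, read 7.29 and 10.72 in line 150-3 and 7.37 and 11.78 in line 150-4. With ECV it was barely above background in both lines, and it rose by 3.92 (SE 0.444, adjusted p = 3.98e-05), with its other probes at 2.70 and 3.82. LILRA3, a soluble member of the leukocyte immunoglobulin-like receptors, went from 7.37 to 11.01 and from 7.40 to 11.59, a change of 3.92, with 2.37 in its less bright probe. TREM1, an activating receptor that amplifies inflammatory signals, rose from 8.28 to 11.83 and from 8.18 to 12.20 (log2 change 3.78, SE 0.140). The integrin chain ITGAM, also known as CD11b, stood at 7.90 and 7.88 with ECV and at 10.91 and 10.94 with KLF4 virus. Its values differed between lines by less than 0.05, and it rose 8.20-fold. NFE2, a basic leucine zipper factor best known in megakaryocytes and erythroid cells, rose by 3.10 (SE 0.117), from 8.62 to 11.67 and from 8.65 to 11.80.

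The remaining large rises spanned enzymes, receptors and a cell cycle inhibitor. AKR1C2, an aldo-keto reductase of steroids whose family members share much sequence, rose by 3.02 and the lysosomal thiol reductase IFI30 by 2.87. C5AR1, the receptor of complement fragment C5a, rose by 2.78, the integrin chain ITGB7 by 2.71 and the membrane protein EMP1 by 2.63. ITLN1, a lectin that binds microbial sugars, was below background on both ECV arrays (7.06 and 6.99) and read 10.08 and 9.73 with KLF4 virus, so its rise was at least 6.24-fold. CDKN1A, the inhibitor of cyclin-dependent kinases, went from 9.24 to 11.73 in line 150-3 and from 9.37 to 12.11 in line 150-4. The groups did not overlap, and CDKN1A rose 6.12-fold (log2 change 2.61, SE 0.202, adjusted p = 1.36e-06).

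**Figure D1:**
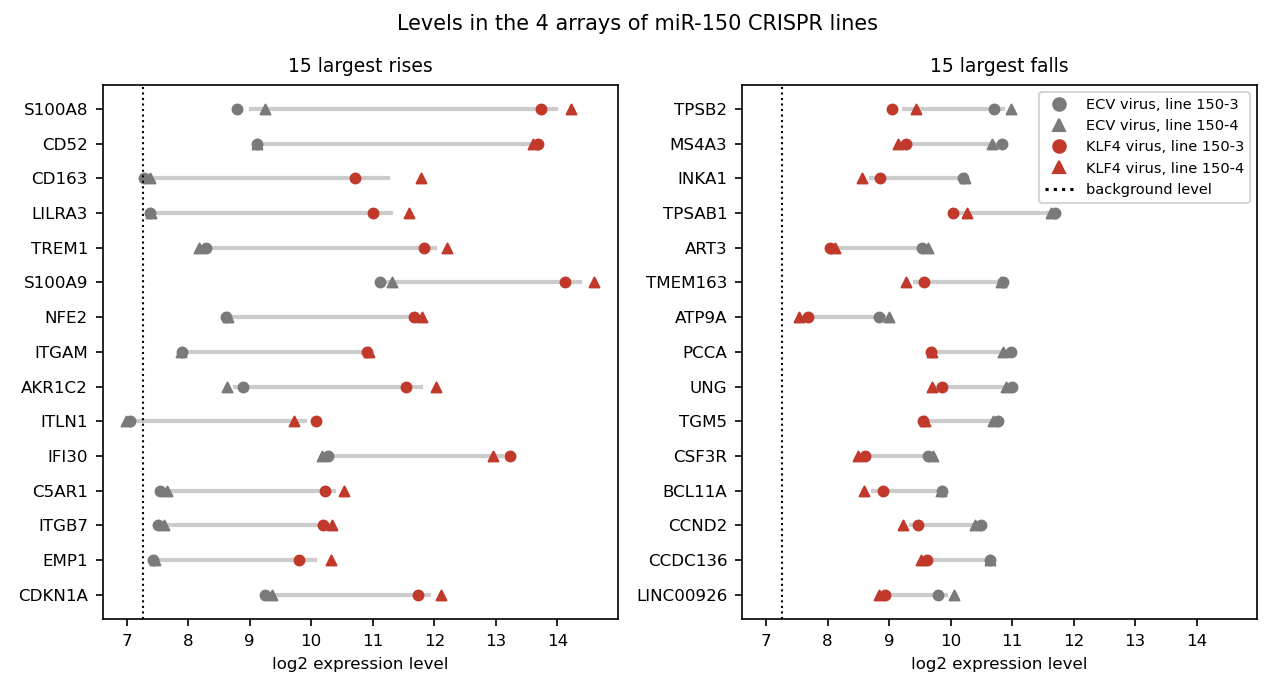
Log2 level of the 15 genes with the largest rises (left) and the 15 with the largest falls (right) on the 4 arrays of miR-150 CRISPR lines; circles are line 150-3, triangles line 150-4, grey ECV and red KLF4 virus, grey bars join the virus means and the dotted line is the background level of 7.26. In every row both red points lie on 1 side of both grey points, from a rise of 4.96 for S100A8 to a fall of 1.60 for TPSB2.

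Falls were smaller, and the largest included tryptases of mast cells and a gene of progenitors. The mast cell tryptase TPSB2 read 10.71 with ECV and 9.05 with KLF4 virus in line 150-3, and 10.99 and 9.43 in line 150-4, a fall of 1.60 on the log2 scale (SE 0.210, adjusted p = 0.000135). TPSAB1 fell by 1.50, and these near-identical copies may not be told apart by their probes. Other mast cell markers, CPA3 and HDC, were below background on all 4 arrays. MS4A3, best known from progenitors of granulocytes and monocytes, went from 10.84 to 9.27 and from 10.67 to 9.14, a fall of 1.55 (SE 0.118, adjusted p = 1.28e-06). INKA1, an inhibitor of the kinase PAK4, fell by 1.51 and the ADP-ribosyltransferase ART3 by 1.50. The vesicle zinc transporter TMEM163 fell by 1.42, the flippase ATP9A by 1.30 and the mitochondrial carboxylase subunit PCCA by 1.23. BCL11A, a repressor in immature and lymphoid cells, fell by 1.11 in the probe used, with its other probes at -0.31 and -1.07. The D-type cyclin CCND2 fell by 1.10.

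Some falls were seen in part of a gene's probes. CSF3R, the receptor of granulocyte colony-stimulating factor, fell by 1.13 in its brighter probe, while its other kept probe changed by -0.10. The DNA repair enzyme UNG changed by -1.17 in the probe used and by -0.16 and -0.23 in the others, and the transglutaminase TGM5 by -1.16 and -1.13 in a pair of probes and by -0.12 and -0.02 in the others. CCDC136 and the long non-coding RNA LINC00926 fell by 1.08 and 1.04. All 15 largest rises and all 15 largest falls were chosen on this contrast for their size, which describes them and tests nothing further.

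In all, 1983 of 12072 genes were called (16.4%), 980 higher (8.12%) and 1003 lower (8.31%). Each had the same sign in both lines. A call requires a mean change that is large against the spread between lines, so this shared sign largely follows from the call. Large changes were mostly rises. At least 2-fold changes numbered 158 higher (1.31%) and 20 lower (0.166%), and at least 4-fold changes 25 higher and 0 lower. The median log2 change was -0.01 over all genes, 0.54 among genes called higher and -0.43 among those called lower. The 2 KLF4 arrays lay above the 2 ECV arrays for 3369 genes (27.9%) and below them for 3869 (32.0%). Among the called genes, 56 went from both ECV arrays at or below background to both KLF4 arrays above it, and 21 went the other way.

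Leaving out 1 of the 4 arrays leaves a lone array in its group and lowers the count of calls throughout. Genes called higher then numbered 531, 686, 629 and 592, and genes called lower 388, 607, 489 and 430. These counts are for fits without the ECV and KLF4 arrays of line 150-3 and the ECV and KLF4 arrays of line 150-4, and later sets of 4 counts follow this order. In all 4 such fits 688 of the called genes were called again, among them 142 of the 158 at least 2-fold higher and 20 of 20 at least 2-fold lower.

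The lines were also compared with each other. Across the 12072 genes the change in line 150-3 and that in line 150-4 had a Pearson correlation of 0.810 and a Spearman correlation of 0.630, over genes that share arrays and are not independent replicates. The median size of the difference between lines was 0.137 on the log2 scale. Of the 158 genes at least 2-fold higher, 111 changed more in line 150-4 and 47 more in line 150-3. A gap over 0.5 was seen in 21 with the larger rise in line 150-4 and in 1 with the larger rise in line 150-3. With 1 array per line and virus, this difference has no replicate and was not tested.

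The 5 called genes with the widest gap were AQP9, S100A12, CD163, RNASE1 and MXD1, each higher with KLF4 virus in line 150-4 than in line 150-3. Of these, AQP9, CD163 and MXD1 were above background on all 4 arrays. The glycerol and water channel AQP9 changed by 1.82 in line 150-3 and by 3.08 in line 150-4, and MXD1, an antagonist of MYC, by 1.46 and 2.27. S100A12 and RNASE1 were below background with ECV, so the size of their gap is not settled. S100A12, a relative of S100A8, read 8.68 and 9.89 with KLF4 virus, against 7.07 and 7.05 with ECV, a rise of at least 4.07-fold. The secreted ribonuclease RNASE1 read 8.53 and 9.31, against 7.10 and 7.03, at least 3.15-fold higher. The call of AQP9 ended without the ECV array of line 150-3 (adjusted p = 0.0522) or the KLF4 array of line 150-4 (0.0918). That of S100A12 ended without either of these or the ECV array of line 150-4 (0.0649 to 0.136). With a mean-dependent variance and robust fit the calls of AQP9 (0.0878), S100A12 (0.114), RNASE1 (0.0560) and MXD1 (0.0570) ended. The platelet chemokine PPBP, not called, changed by 1.16 and 2.46. Gaps between lines were also seen in the other targets. AQP9 changed by 4.36 in NT-2 and 2.08 in NT-3, and by 2.18 in p21-2 and 2.77 in p21-3. For CD163 these changes were 5.43 and 3.51, and 3.59 and 4.48.

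**Figure D2:**
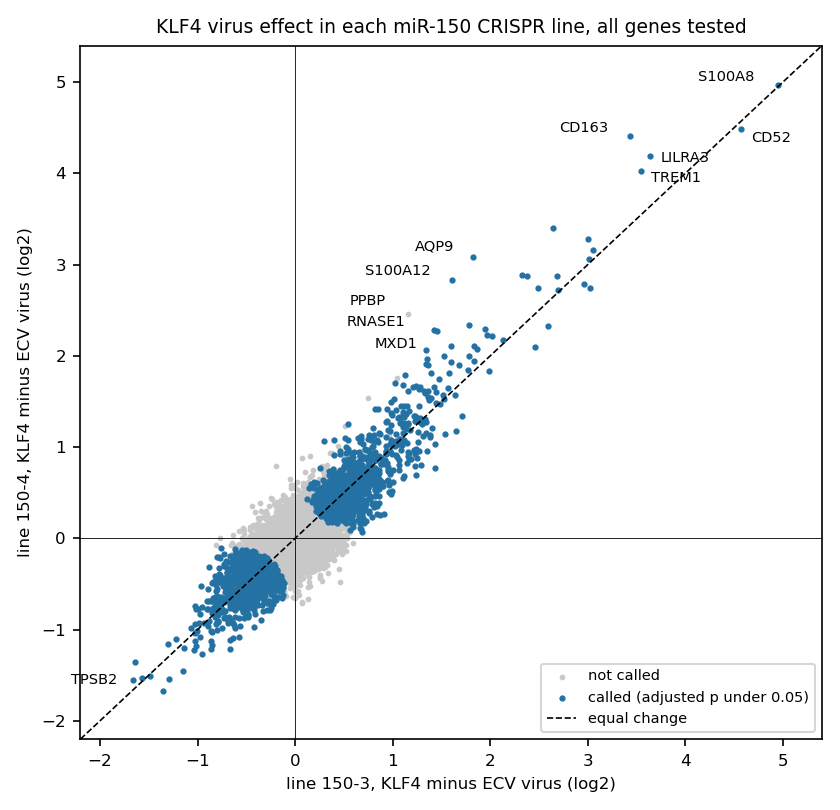
Log2 change with KLF4 virus in line 150-3 (horizontal axis) and in line 150-4 (vertical axis), 1 point per gene tested, blue where the mean change was called and grey elsewhere; the dashed line marks equal change. Every blue point has the same sign in both lines, which largely follows from the call. AQP9, S100A12, CD163, RNASE1 and MXD1 lie above the dashed line.

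CACCC boxes, the letters that KLF factors are known to bind, were counted in RefSeq promoters (GRCh38.p14, 250 bases before to 50 after each start). The motifs searched were CACCC and the longer CCNCACCC, which contains it, on both strands, so that GGGTG counts as CACCC. The short motif was present in 59.9% of all 35116 promoters and in 63.5% of those of genes tested. It was present in 69.3% of promoters of genes called higher, 62.7% of those called lower and 71.6% of the 183 promoters of genes at least 2-fold higher. CCNCACCC was present in 18.3% of all promoters, 20.6% of those of genes tested, 25.1% of those called higher, 20.4% of those called lower and 30.6% of those at least 2-fold higher. No test was made of these shares, and base composition was not matched. Of the 15 genes with the largest rises, 13 had a promoter in the table. With the 250 bases before the start alone, CACCC was present in 54.7% of all promoters and in 58.2% of those of genes tested. Its share was 64.5% among promoters of genes called higher and 56.3% among those called lower. In this window 7 of the 13 held CACCC in at least 1 listed promoter, and CD163, TREM1, S100A9, AKR1C2, EMP1 and CDKN1A, 6 in all, did not. This count is by gene, while the shares are by promoter. These 250 bases are printed on the coding strand for 3 genes with several matches and, as an example without one, for CD163. Capitals mark CACCC or GGGTG. CD52 (chr1:26317708-26317957, plus strand) and ITGB7 (chr12:53207252-53207501, minus strand) each hold 3 matches, IFI30 (chr19:18173563-18173812, plus strand) holds 2 and CD163 (chr12:7503778-7504027, minus strand) holds 0. A match is a description and not a binding site, and the lack of one says only that these letters are not in the window.
CD52: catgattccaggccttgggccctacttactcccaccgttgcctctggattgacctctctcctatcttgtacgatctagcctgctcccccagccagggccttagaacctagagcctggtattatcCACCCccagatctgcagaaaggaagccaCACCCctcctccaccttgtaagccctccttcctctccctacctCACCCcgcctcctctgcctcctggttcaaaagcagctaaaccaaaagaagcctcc
ITGB7: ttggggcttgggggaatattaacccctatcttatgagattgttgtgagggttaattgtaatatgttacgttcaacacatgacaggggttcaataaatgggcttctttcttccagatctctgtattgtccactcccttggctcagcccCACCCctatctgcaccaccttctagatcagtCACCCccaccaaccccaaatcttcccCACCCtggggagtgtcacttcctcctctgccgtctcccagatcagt
IFI30: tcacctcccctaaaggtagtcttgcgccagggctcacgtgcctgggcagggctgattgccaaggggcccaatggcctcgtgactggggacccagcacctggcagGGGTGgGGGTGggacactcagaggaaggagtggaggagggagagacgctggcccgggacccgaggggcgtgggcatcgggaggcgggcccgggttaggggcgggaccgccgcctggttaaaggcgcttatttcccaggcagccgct
CD163: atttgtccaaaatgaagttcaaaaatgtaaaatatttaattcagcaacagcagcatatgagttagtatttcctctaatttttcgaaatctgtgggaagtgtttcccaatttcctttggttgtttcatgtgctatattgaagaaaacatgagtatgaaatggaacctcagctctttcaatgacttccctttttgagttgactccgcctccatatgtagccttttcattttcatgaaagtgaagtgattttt

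Gene lists covering receptors, signalling, granules, the cell cycle and metabolism were then counted. Each list is described by its called members against the 8.12% of all genes called higher and 8.31% called lower, and by its median change against -0.01 for all genes. The lists and their members were chosen with earlier results of these data known. Their shares and medians therefore describe them and test nothing. A member that is dim with ECV could enter the test only through its KLF4 arrays, so a count covers tested members and not all members.

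Of 24 monocyte and macrophage surface markers 19 were tested, and 9 rose and 0 fell, with a median change of 0.57. Beside CD163, TREM1 and ITGAM these included CD86, which costimulates T cells and went from 7.87 to 10.46 and from 8.16 to 10.48 (log2 change 2.46, SE 0.134). The integrin chain ITGAX, CD11c, rose by 1.89 and the lysosomal protein CD68 by 1.19, with its other probes at 0.51 and 0.55. FCGR2A, CX3CR1 and MARCO rose by 0.78, 1.03 and 0.76. The calls of FCGR2A and CX3CR1 ended in each fit with 1 array left out, and that of MARCO in some. Several defining monocyte genes were not called. CD14, the coreceptor for lipopolysaccharide, read 7.28 and 7.71 in line 150-3 and 7.45 and 7.97 in line 150-4, a change of 0.47 (adjusted p = 0.325), and CSF1R changed by -0.02. The marker list's median was 0.42 in line 150-3 and 0.81 in line 150-4.

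S100 proteins, small calcium-binding proteins, had 8 of 11 tested members rise and 0 fall, with a median of 0.73. Beside S100A8, S100A9 and S100A12, S100P rose by 1.30 and S100A10, the partner of annexin A2, by 1.22. S100P was already bright, at 12.80 and 12.74 with ECV against 14.09 and 14.04 with KLF4 virus. S100A4 rose by 0.30, and its call and that of S100A12 ended in most fits with 1 array left out. The 3 tested members that were not called, S100A2, S100A13 and S100A7, changed by between -0.10 and 0.16.

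Paired immunoglobulin-like receptors signal through activating or inhibitory partners, and 11 of 21 tested members rose and 0 fell (median 0.54). Members listed as activating had 4 of 6 rise, with LILRA5 at 1.70 and LILRA2 at 0.98 beside TREM1 and the soluble LILRA3. Inhibitory members had 3 of 10 rise. LILRB2, an inhibitory receptor for HLA class I, rose by 1.81, its dimmer probe giving 0.39, and PILRA rose by 1.61. LILRB1, LILRB3 and LAIR1 changed by 0.20, 0.15 and 0.06 and were not called. Members of this family share sequence, and a probe may read more than 1. Of 5 genes listed as signalling partners 4 rose. The calls of HCST (0.40) and the phosphatase PTPN6 (0.49) ended in some fits with 1 array left out. FCER1G, the common Fc receptor gamma chain, went from 12.43 to 13.66 and from 12.55 to 13.84 (log2 change 1.26, SE 0.103), and TYROBP, known as DAP12, rose by 1.46.

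Receptors that read antibodies and microbes followed. Of 10 tested Fc receptor genes 4 were called higher and 1 lower, and the counts with 1 array left out were 1, 3, 2 and 1 higher. FCER1G was the single member called in each of those fits. Of 14 Toll-like receptor and adaptor genes 4 were called higher and 0 lower (1, 3, 2 and 1 higher with 1 array left out). The member called throughout was LY96, or MD-2, which presents lipopolysaccharide to TLR4. LY96 rose by 2.12 (SE 0.159, adjusted p = 1.13e-06), from 9.61 to 11.56 and from 9.83 to 12.12, while TLR4 changed by 0.21 and was not called. Among 19 lectins of the C-type and sialic acid families, 4 were called higher and 6 lower, and the lower count was 4, 4, 3 and 3 with 1 array left out. SIGLEC14, an activating sialic acid receptor, rose by 1.01, and CLEC12A and CD69 fell by 0.70 and 0.56.

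Leukocyte adhesion genes had 14 of 24 tested members called higher and 1 lower, with a median of 0.45. The integrin chains ITGAM, ITGB7, ITGAX and ITGA6 rose, the last by 1.16. ITGB2, the beta chain that pairs with ITGAM and ITGAX, changed by 0.19 and was not called. CD2, a receptor best known on T cells that binds CD58, read 7.51 with ECV and 9.97 with KLF4 virus in line 150-3, and 7.63 and 9.73 in line 150-4. CD2 rose by 2.28 while CD3D and CD3E stayed below background, and CD58 itself rose by 0.85. ICAM2, a ligand of leukocyte integrins, rose by 1.44 and ADGRE1, the human counterpart of mouse F4/80, by 2.06. ITGA5 and CD44 rose by 0.30 and 0.45, and their calls ended in each fit with 1 array left out. Those of ICAM1 (0.44) and ADGRE5 (0.62) ended in some of these fits.

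Chemoattractants and their receptors were counted apart. Of 12 tested receptors 5 were called higher and 3 lower, and of 10 ligands 2 were higher and 1 lower. Over the whole list the 7 higher calls became 3, 5, 4 and 3 with 1 array left out, and the 4 lower calls 3, 2, 2 and 4. FPR1, the receptor for bacterial formyl peptides, rose by 1.89 (SE 0.120) and its relative FPR2 by 0.97. CXCR4, which retains cells in bone marrow and is a reported miR-150 target, read 11.80 and 11.01 in line 150-3 and 11.86 and 10.96 in line 150-4. CXCR4 fell by 0.84 (SE 0.131, adjusted p = 0.000551). The chemokine CCL5 fell by 0.48.

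Of 23 growth factor and cytokine receptors 5 were called higher and 1 lower, and the higher count was 2, 4, 3 and 2 with 1 array left out. IL10RA, the ligand-binding chain for interleukin 10, rose by 1.17 and the common gamma chain IL2RG by 0.50. CSF3R, described above, was the single fall, and CSF2RA, CSF2RB and IL3RA were not called (0.35, 0.08 and 0.00).

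Granule proteins went both ways, with 3 of 17 higher and 4 lower. The falls were PRTN3, both tryptases and MS4A3, which the list also counts. PRTN3, a serine protease of primary granules, fell by 0.53. Primary granule proteins also rose, ELANE by 0.92 and BPI by 0.60, though the call of ELANE ended in 1 fit with 1 array left out. Haptoglobin, HP, a secondary granule protein, rose by 0.91. MPO, the peroxidase of primary granules, changed by -0.20 and was not called. Of 7 tested genes of the phagocyte NADPH oxidase 2 were called higher and 1 lower, and in fits with 1 array left out 0, 0, 1 and 1 were higher and 0 lower. Its catalytic subunit CYBB changed by 0.08.

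Lysosomal genes had 17 of 38 called higher and 0 lower, with a median of 0.30 (11, 12, 12 and 13 higher with 1 array left out). By role, 5 of 9 membrane and cargo proteins and 5 of 7 subunits of the proton pump were called higher. Of 8 glycosidases and other hydrolases 0 were. Of 11 genes listed as proteases 7 were called higher, among them IFI30, which is a thiol reductase. The calls of CTSB, CTSK, CTSS and the pump subunit ATP6V1A ended in each fit with 1 array left out. The cathepsins CTSH and CTSD rose by 1.11 and 1.03. CTSH read 12.07 and 13.34 in line 150-3 and 12.30 and 13.26 in line 150-4. PSAP, the precursor of the saposins, rose by 0.90, GRN by 0.78 and the pump's accessory subunit ATP6AP1 by 0.74. TFEB, a regulator of lysosomal genes, changed by -0.18 in line 150-3 and 0.18 in line 150-4. GLB1, a galactosidase, changed by -0.29, and neither was called.

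Antigen presentation genes were counted by class. Of 12 tested class I genes 6 were called higher and 0 lower, and of 5 class II genes 0 higher and 1 lower, HLA-DRB1 (-0.64), whose call ended without the KLF4 array of line 150-3 or the ECV array of line 150-4. HLA-B read 10.995 with ECV and 12.35 with KLF4 virus in line 150-3, and 11.01 and 12.62 in line 150-4. HLA-B rose by 1.49 (SE 0.102), HLA-E by 1.18 and the peptide transporter TAP1 by 0.71, while B2M, the common light chain, changed by 0.02. For HLA-F the probe used rose by 1.54 and the other changed by -0.05. Class I genes are alike in sequence, so a probe may read several. CD74, the class II chaperone, changed by -0.25 and was not called.

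Interferon response genes had 9 of 32 called higher and 1 lower (median 0.43). The higher count was 2, 4, 4 and 2 with 1 array left out, and OAS1 and IRF1 were called in each. OAS1, an antiviral sensor of double-stranded RNA, went from 8.75 to 10.43 and from 8.77 to 10.67 (log2 change 1.79, SE 0.168), and its 3 other probes changed by 0.39, 1.79 and 1.88. The transcription factor IRF1 rose by 0.73. IFIT1, ISG15 and OAS2 changed by 1.40, 1.14 and 1.08 and were not called.

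Of 29 NF-kB targets and inflammatory cytokines 10 were called higher and 0 lower (7, 6, 8 and 8 higher with 1 array left out). NFKBIZ, an atypical nuclear inhibitor, rose by 1.97, IER3 by 1.77 and BCL3, another nuclear inhibitor-like factor, by 1.69. PLAUR, the urokinase receptor, rose by 1.20, IL1B, the cytokine interleukin 1 beta, by 1.23 and NFKBIA by 0.97. TNF, IL6 and IL10 changed by 0.20, 0.11 and 0.29 and were not called.

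Among transcription factors listed for the monocyte lineage 7 of 21 were called higher, with NFE2 among them, and 3 lower. CEBPB, which drives monocyte and macrophage genes, read 12.20 and 13.34 in line 150-3 and 12.05 and 13.50 in line 150-4, and rose by 1.30 (SE 0.103). KLF9 and KLF13, relatives of KLF4, rose by 1.09 and 0.83. IRF8, needed for monocyte and dendritic cell development, fell by 0.69. The calls of GFI1 (-0.89), EGR1 (-0.53), KLF6 (0.52) and RUNX3 (0.39) each ended in at least 1 fit with 1 array left out. SPI1, or PU.1, changed by 0.47 and CEBPA by -0.15, and neither was called.

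**Figure D3:**
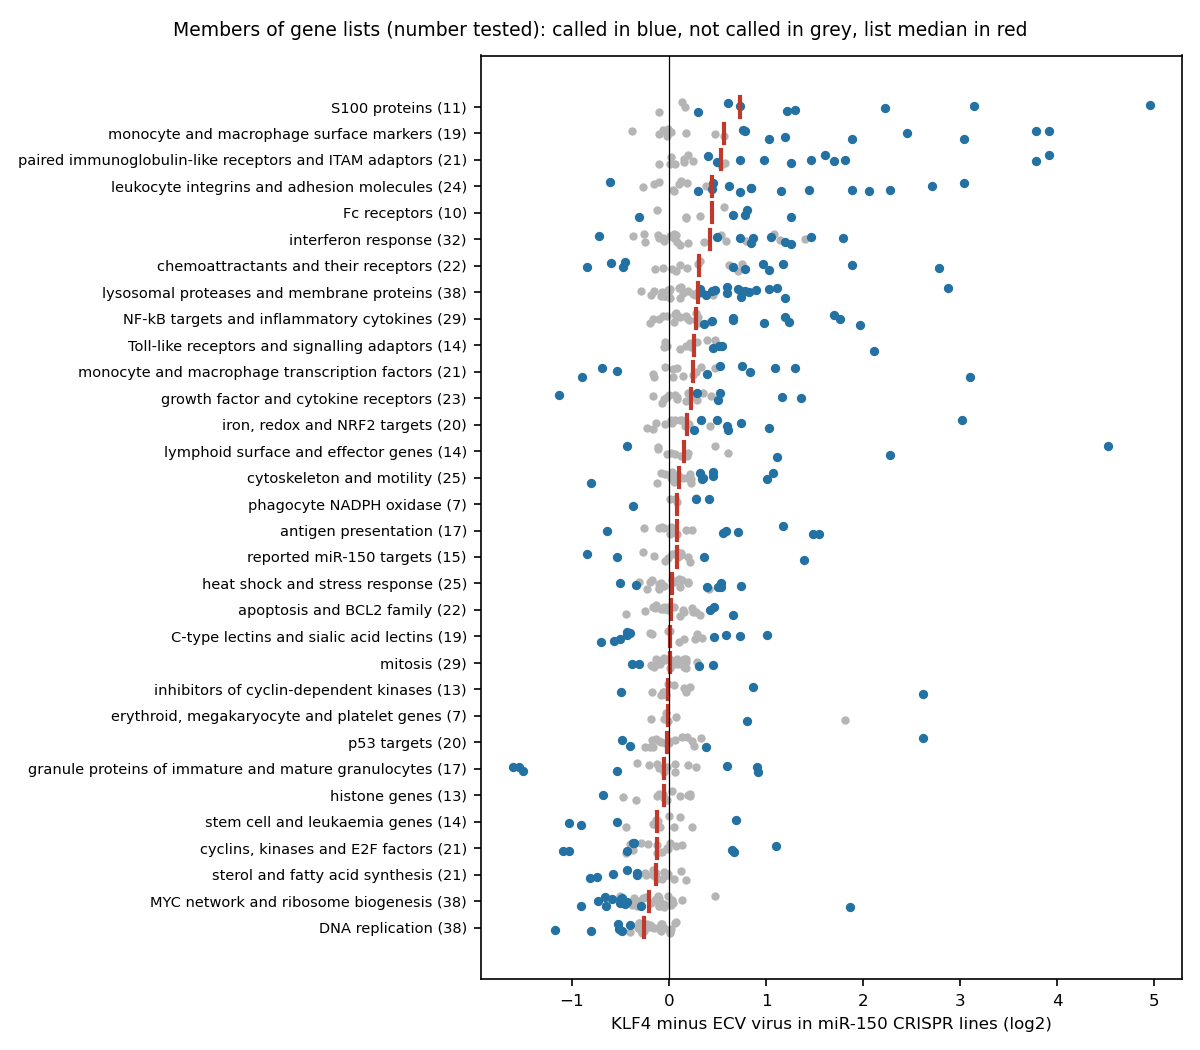
Log2 change with KLF4 virus in miR-150 CRISPR lines for the tested members of 32 gene lists, blue where called and grey elsewhere, with the list median as a red bar and the number tested in brackets. S100 proteins have the highest median (0.73) and DNA replication the lowest (-0.26).

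Cell cycle genes were read next. Of 13 inhibitors of cyclin-dependent kinases 2 were called higher and 1 lower, and CDKN1A was the single one called in all 4 fits with 1 array left out. Its relatives CDKN1B and CDKN1C changed by -0.01 and 0.05. CDKN2D (0.87) lost its call without the KLF4 array of line 150-4 (adjusted p = 0.0616), and CDKN2A (-0.50) without either array of line 150-3 or the KLF4 array of line 150-4 (0.141, 0.0791 and 0.0564). Of 21 cyclins, kinases and E2F factors 3 were called higher and 5 lower. CCND2 read 10.49 and 9.47 in line 150-3 and 10.40 and 9.22 in line 150-4, and its kinase partner CDK6 read 9.87 and 8.85, and 9.59 and 8.55. CDK6 fell by 1.03 (SE 0.110), while CCND3, another D-type cyclin, rose by 0.65. E2F2, a transcription factor of the S phase programme, went from 11.76 to 12.88 and from 11.93 to 13.01, a rise of 1.10 (SE 0.0947). The mitotic cyclins CCNB1 and CCNB2 and the kinase CDK1 changed by -0.08, -0.03 and 0.13.

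DNA replication genes had 0 of 38 called higher and 6 lower, with a median of -0.26 (2, 7, 4 and 2 lower with 1 array left out). POLD1, the catalytic subunit of polymerase delta, fell by 0.81, and MCM2 and MCM4 of the replicative helicase changed by -0.53 and -0.52. The MCM2 and MCM4 calls ended without the ECV array of line 150-3 (adjusted p = 0.201 and 0.176) or the KLF4 array of line 150-4 (0.124 and 0.149), and that of MCM2 also without the KLF4 array of line 150-3 (0.0614). PCNA, the sliding clamp, changed by -0.20. Of 29 mitosis genes 2 were called higher and 2 lower, with a median of 0.01, and in fits with 1 array left out at most 1 was higher and 0 lower. Of 13 histone genes 1 was called, H2BC12, lower by 0.68 on the log2 scale.

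MYC, which drives growth and ribosome production, read 11.60 with ECV and 10.62 with KLF4 virus in line 150-3, and 11.59 and 10.75 in line 150-4, and fell by 0.90 (SE 0.0940, adjusted p = 1.93e-05). Of 22 tested genes of ribosome biogenesis 9 were called lower and 0 higher, with a median of -0.35, among them the nucleolar proteins NOP16 and NOP56, which fell by 0.73 and 0.66. ODC1, the first enzyme of polyamine synthesis, fell by 0.65. Over the whole list of 38 the 11 lower calls became 5, 6, 6 and 6 with 1 array left out. MXD1, which competes with MYC for its partner MAX, was the single member called higher (1.86), and that call ended with a mean-dependent variance and robust fit (adjusted p = 0.0570).

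Genes of immature and leukaemic cells had 1 of 14 called higher and 3 lower. MYB was bright, at 13.07 with ECV and 12.69 with KLF4 virus in line 150-3, and at 13.17 and 12.49 in line 150-4. The KLF4 arrays were below the ECV arrays, and MYB fell by 0.53 (SE 0.126, adjusted p = 0.0101). The call ended without the ECV (adjusted p = 0.0872) or KLF4 array (0.113) of line 150-4. LMO2, a bridging factor of blood stem cells, rose by 0.69, and KIT and MEIS1 changed by -0.17 and -0.11.

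Reported targets of miR-150 had 2 of 15 called higher and 2 lower, with a median of 0.08, and the counts with 1 array left out were 1, 1, 1 and 1 higher and 2, 2, 1 and 1 lower. Beside CXCR4 and MYB, P2RX7, an ATP-gated channel of monocytes, read 7.85 and 8.96 in line 150-3 and 7.76 and 9.44 in line 150-4. P2RX7 rose by 1.40 (SE 0.249, adjusted p = 0.0016). VEGFA changed by 0.36, a call that ended without any single array of the 4 (adjusted p from 0.0653 to 0.111). NOTCH3, CREB1 and EP300 were not called, at 0.10, 0.03 and 0.12.

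Of 20 p53 targets 2 were called higher and 2 lower, and CDKN1A was the single one called in all 4 fits with 1 array left out (1, 2, 2 and 2 higher, and 0, 1, 1 and 0 lower). MDM2 and BAX changed by 0.00 and -0.25. Among 22 apoptosis genes 3 were called higher and 0 lower, and the survival factor MCL1 rose by 0.46 in the probe used, with the other at 0.15. Of 25 heat shock and stress genes 5 were called higher and 2 lower (2, 3, 2 and 2 higher, and 1, 0, 0 and 1 lower, with 1 array left out). The stress factor DDIT3 rose by 0.74 and ATF3 by 0.53.

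In metabolism, 0 of 21 sterol and fatty acid synthesis genes were called higher and 6 lower (3, 3, 3 and 3 lower with 1 array left out). FASN, the fatty acid synthase, read 12.44 and 11.62 in line 150-3 and 12.41 and 11.61 in line 150-4 and fell by 0.81 (SE 0.115). ACACA, which makes its substrate malonyl-CoA, fell by 0.74, while HMGCS1 and SQLE of the sterol branch changed by -0.12 and 0.13. Iron and redox genes had 8 of 20 called higher and 0 lower (5, 8, 5 and 5 higher with 1 array left out). HMOX1, the haem-degrading enzyme downstream of CD163, rose by 1.03, and NQO1 rose by 0.74 in the probe used, with the other at 0.09. FTL and TFRC, for iron storage and uptake, changed by 0.12 and -0.22.

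Of 14 tested lymphoid genes 3 rose, CD52, CD2 and NKG7, and 1 was called lower, CD37, whose call ended in each fit with 1 array left out (adjusted p from 0.0964 to 0.218) and with no filter, cyclic loess or background subtraction (0.0508 to 0.0865). NKG7, a granule protein of killer cells, was bright with ECV (12.96 and 12.95) and rose by 1.12. Over the 5 T and NK cell markers the mean level was between 8.23 and 8.33 with ECV and between 8.43 and 8.53 with KLF4 virus, and CD3D, CD3E, CD8A and GNLY were below background. Of 7 tested erythroid, megakaryocyte and platelet genes VWF alone was called, from below background with ECV to 7.72 and 7.84 with KLF4 virus, at least 1.43-fold higher. The mean over that marker class was between 7.24 and 7.30 with ECV and between 7.54 and 7.72 with KLF4 virus. PPBP was its single marker above background on all 4 arrays, and NFE2 moved the same way. The part of such cells in the rises of NFE2, CD2 and NKG7 was not tested.

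Cytoskeletal genes had 7 of 25 called higher and 1 lower (2, 8, 4 and 3 higher with 1 array left out). The annexin ANXA4 rose by 1.07 and the intermediate filament VIM by 1.01, and the actin-capping protein CAPG fell by 0.81.

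The response was then set against that of the non-targeting and p21 lines, which share no array with it. All 3 responses came from the same fit and share its estimate of spread, so their calls are not independent. S100A8, CD52 and CDKN1A rose by 5.28, 4.77 and 2.88 in non-targeting lines and by 5.65, 4.57 and 2.23 in p21 lines. All 30 genes of the largest rises and falls were called in both other targets. Of the 1983 genes called in miR-150 lines, 734 were called higher and 691 lower in all 3 targets. In non-targeting lines 3252 genes were called (26.9%) and in p21 lines 2269 (18.8%).

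No gene passed the test of a different response in miR-150 lines (limma). The count was 0 against non-targeting lines, 0 against p21 lines and 0 against their mean, with 497 (4.12%), 300 (2.49%) and 295 (2.44%) genes whose unadjusted p was under 0.05. The count against non-targeting lines depended on the KLF4 arrays of that group, whose median SD over genes was 0.0988 against 0.0595 to 0.0709 in the other 5 groups. Without NT-3 with KLF4 virus it was 436, and without NT-2 with KLF4 virus 1. Against the mean of both targets it was 24 and 1. The median SE of a difference was 0.142, so small differences could not be detected with this number of arrays.

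Intervals show what could be missed. The CDKN1A response differed from that in non-targeting lines by -0.27 (95% interval -0.88 to 0.35) and from that in p21 lines by 0.38 (-0.23 to 0.996). For MYB the differences were 0.30 (-0.08 to 0.69) and -0.15 (-0.53 to 0.23), where a positive value is a smaller fall in miR-150 lines. S100A8 differed by -0.32 (-1.09 to 0.44) and -0.69 (-1.46 to 0.07). Of the 30 largest changes, 2 differed from non-targeting lines at an unadjusted p under 0.05, MS4A3 by 0.44 (0.08 to 0.79) and UNG by 0.46 (0.02 to 0.91), with adjusted p = 0.973 for each. From p21 lines 1 differed in this way, TGM5 by 0.42 (0.10 to 0.75, adjusted p = 0.9999).

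There were 161 genes called in miR-150 lines and in neither other target, 80 higher and 81 lower. Their changes were small, at most 0.59 on the log2 scale, and 138 had the same direction in both other targets. The smallest adjusted p of a difference among them was 0.973 against non-targeting and 0.9999 against p21 lines, so none is shown to be particular to miR-150 lines. The mitochondrial ribosomal protein MRPS2 fell by 0.52, with -0.23 in non-targeting and -0.20 in p21 lines. The outer membrane channel VDAC1 fell by 0.52 as well, with -0.28 and -0.26. RRM2B, LTB4R and MT2A changed by 0.38, -0.45 and 0.45. The other kept probe of RRM2B changed by 0.0043, and with the mean of both probes its change was 0.19 and the call ended (adjusted p = 0.1003). Each of these 3 lost its call without at least 1 of the 4 arrays, RRM2B without the ECV array of line 150-3 (adjusted p = 0.0554), LTB4R without the KLF4 array of line 150-3 (0.0560) or the ECV array of line 150-4 (0.0639), and MT2A without the ECV or KLF4 array of line 150-4 (0.0792 and 0.0564).

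**Figure D4:**
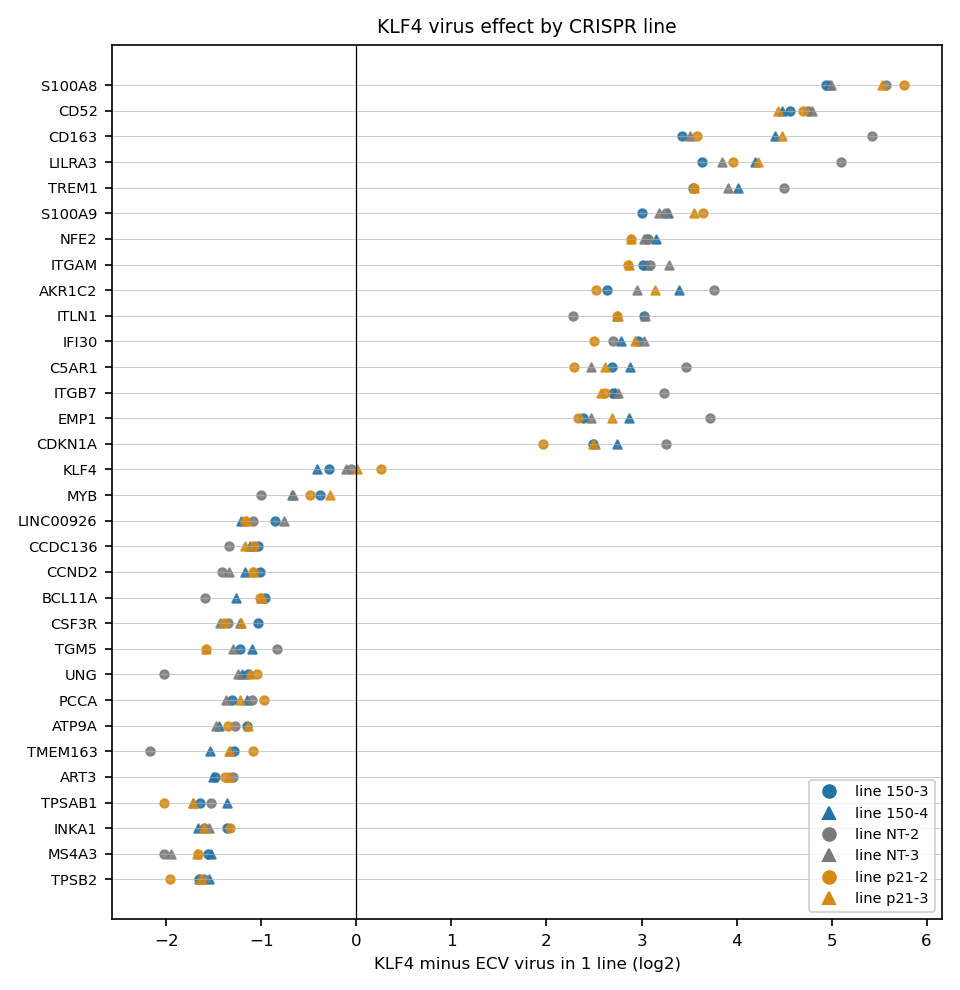
Log2 change with KLF4 virus in each of the 6 CRISPR lines for the 15 largest rises, the 15 largest falls, KLF4 and MYB; blue marks the miR-150 lines, grey the non-targeting lines and orange the p21 lines. The 6 lines lie on the same side of 0 for every gene shown but KLF4, where both p21 lines are above 0 (0.25 and 0.01).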

How the data were processed

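Expression was measured in 12 THP-1 samples on Illumina bead arrays, with 2 arrays per construct and virus. The authors deposited log2 values for 47323 probes, and the array medians were all 7.17. How they were made is not given in the material used here. A further 24 columns of unnormalised values could not be tied to samples and were not used. The background level was the 95th percentile of values below the mode mirrored about it, and 22296 probes exceeded it on at least 2 arrays. For each gene the probe with the highest mean was kept. Symbols are those of the platform's probe table, brought up to date by gene identifier.

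One model with 6 group means was fitted to all 12 arrays (limma 3.58.1 in R 4.3.3, lmFit and eBayes), without the CRISPR line as a block, and was tested on simulated data. Lines pair ECV and KLF4 arrays by label. The correlation of same-line deviations was -0.05 in miR-150 lines, 0.10 in non-targeting lines and 0.07 in p21 lines. Each change was also read within its line. A fold is a lower bound where both arrays of a group were at or below background.

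The rule for named genes took KLF4, CDKN1A and MYB, the 15 largest called rises and 15 largest called falls, and of each list the 4 tested members with the smallest p. It also took the 3 smallest p in each direction for each difference from another target, the 5 called genes that differ most between lines, and the 5 genes with the smallest p among those called in miR-150 lines alone. Other list members were picked with their values in view. The members and lists were chosen with earlier results of these data known. The alternatives tried changed the arrays in the fit, array weights, variance model, filter, normalization, background, probe choice, size threshold and promoter window, and left out each array in turn.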

Additional observations from a re-analysis of the deposited data

Results flagged for a closer look

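Among the named genes called in miR-150 lines, 6 changed in both miR-150 lines in the direction opposite to both lines of another target. Of these 6, 5 were named for the small p of such a difference, so they are no random sample. Over all 12072 genes tested, 620 were opposite to non-targeting lines in this way and 679 to p21 lines, of which 7 and 16 were called in miR-150 lines. None passed the limma test of the difference itself, so a difference in response is not shown for any of them. MPDU1, which helps use dolichol sugars, changed by -0.32 in miR-150 lines, 0.40 in non-targeting lines (adjusted p of the difference 0.377) and 0.24 in p21 lines (0.9999). NUF2, a kinetochore protein, changed by -0.31, against 0.35 in non-targeting lines (0.946) and 0.14 in p21 lines (0.9999), and its kept probes differ in sign. The other 4 were opposite in p21 lines alone, each with an adjusted p of 0.9999. KLF4 changed by -0.35 in miR-150 and 0.13 in p21 lines. The splicing factor RBM39 changed by -0.35 and 0.16. SNN changed by -0.44 and 0.10. TMEM267 changed by 0.79 and -0.12, and its kept probes also differ in sign. Most of these calls in miR-150 lines were fragile. Those of KLF4, NUF2 and RBM39 ended without any single array of the miR-150 lines, and those of MPDU1 and SNN without some of them. With the mean of kept probes NUF2 changed by -0.11 and MPDU1 by -0.24, and neither was called (limma adjusted p = 0.359 and 0.0985).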

How the results depend on the processing

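The main count was 1983 called genes. It was 3019 without the non-targeting arrays and 178 where a 2-fold change was also required, and with 1 array left out it ran from 919, without ECV in line 150-3, to 2934, without a KLF4 array of the non-targeting lines. Without the KLF4 array of line 150-3, the ECV array of line 150-4 and the KLF4 array of line 150-4 it was 1293, 1118 and 1022. With the CRISPR line as a replicate block the count was 2047, of which 1857 genes were also called without the block. Cyclic loess gave 1146 higher and 795 lower, so that 59.0% of calls were higher against 49.4% in the main fit. For the difference from non-targeting lines, 0 genes were called, and between 0 and 436 with 1 array left out; from the mean of both targets, 0, and between 0 and 24. The difference from p21 lines gave 0 under every alternative tried. Of 3274 results for named genes under alternatives, 3061 kept their direction and side of the threshold, 182 lost the call, 31 gained it and 0 reversed. Of 138 named genes called, 92 kept the call under every alternative. The cause of these shifts was not tested. Levels near the background of 7.26 limit what dim genes such as KLF4 can show.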
